A study of Mus musculus with 36 samples.

Results

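The cells described here are mouse embryonic stem cells transfected with LiTEC whose RNA was taken 1 h after 30 min on a panel of blue LEDs. They were chosen by their sample titles, which give 3 lit LiTEC libraries at 1 h and 3 dark LiTEC libraries of the same time, 6 of the 36 libraries of the series. Their counterparts were lit and dark wild-type (WT) cells at 1 h and lit and dark LiTEC cells at 0 and 4 h, with 3 libraries in each group. Every culture, dark and WT ones included, had received doxycycline at 2 µg/ml for 2 days and grew in serum-free medium with a MEK inhibitor, a GSK3β inhibitor and leukaemia inhibitory factor (LIF). The mean irradiance of the panel is given as 3.24 mW/cm2 in the treatment protocol and as 3.42 mW/cm2 in the design text. The sources used here do not say what LiTEC encodes, whether the line is a single clone or whether replicates were separate cultures. P-values therefore refer to the spread among libraries as labelled, part of which may be technical. Replicate 1 of each group was in batch 1 and replicates 2 and 3 were in batch 2.

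Several known systems respond to an insult within an hour. Misfolded protein in the cytosol releases the heat shock factor HSF1, which switches on the inducible Hsp70 genes and their cochaperones, and misfolded protein in the endoplasmic reticulum starts the unfolded protein response, with the chaperone Hspa5 and the transcription factor Xbp1 among its targets. In naive stem cells LIF acts through STAT3, whose immediate target Socs3 shuts the receptor down again, while Nodal signalling through SMAD2 and SMAD3 drives its own inhibitors, the Lefty genes.

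The 3 lit libraries held 16821019 to 20102278 counts and the 3 dark ones 13272314 to 18376797. A ribosomal RNA locus, Gm26917, took 9.65% to 10.5% of the counts in lit libraries and 8.95% to 11.4% in dark ones, and the mitochondrially encoded genes took 1.9% to 2.28% in lit libraries and 2.08% to 2.37% in dark ones. The 8 stem cell markers summed to 3022 to 3906 CPM (counts scaled to a library of 1e+06) in lit libraries and 3029 to 3816 CPM in dark ones, so stem cell transcripts were abundant in all 6. Of the other marker lists, the 9 primitive endoderm markers summed to 104 to 173 CPM lit and 108 to 189 CPM dark. Among them 3, Sox17, Foxa2 and Sox7, were under 1 CPM in all 6 libraries, and the others reached 1 CPM in at least 1 library. The 5 mesendoderm markers summed to 5.80 to 10.5 CPM lit and 7.30 to 8.57 CPM dark, the 6 trophectoderm markers to 61.4 to 94.9 CPM lit and 53.1 to 79.5 CPM dark, the 5 neuroectoderm markers to 49.3 to 66.8 CPM lit and 43.4 to 61.0 CPM dark, and the 7 markers of 2-cell-like cells to 6.17 to 29.8 CPM lit and 7.35 to 36.5 CPM dark. The 7 fibroblast and feeder markers summed to 2.56 to 4.41 CPM lit and 2.06 to 4.64 CPM dark. Of these, 5 were under 1 CPM in all 6 libraries, with Dcn and Lum at 0, while Col1a1 and Thy1 reached 1 CPM in at least 1 library. The lit and dark ranges overlapped for each of these lists. In bulk RNA, fewer cells of a type and less RNA per cell cannot be told apart.

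The comparison asks which transcripts differ between lit and dark LiTEC cells 1 h after the light went off. A small set did. The stress chaperone genes Hspa1a, Hspa1b and Dnajb1, the cytokine inhibitor gene Socs3, the nuclear factor gene Banp, the zinc exporter gene Slc30a1 and the endoplasmic reticulum genes Hspa5 and Xbp1 were higher, and the Nodal inhibitor gene Lefty1 and the kinase subunit gene Camk2g were lower. In all, 21 of 18193 tested genes (0.115%) passed edgeR's quasi-likelihood test at a Benjamini-Hochberg adjusted p below 0.05, 15 of them higher (0.0824%) and 6 lower (0.033%). At an unadjusted p below 0.05, 577 genes were higher (3.17%) and 561 lower (3.08%). All 3 lit libraries lay above all 3 dark ones for 14 of the 15 higher genes, against 843 of all tested genes (4.63%), and below them for 6 of the 6 lower genes, against 870 (4.78%), an arrangement that the calls themselves favour. The exception was Xbp1, whose groups overlapped. The 21 genes had the same direction in batch 1 and in batch 2, which the calls, made on the same libraries, also favour. Lit replicate 2 held the lowest lit value for 12 of the 15 higher genes, and without it 35 genes passed. The number was 9 without lit replicate 3 and 10 without dark replicate 3. With the replicate number as a block, 60 genes passed, 37 higher and 23 lower, and they included the 21.

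**Figure D1:**
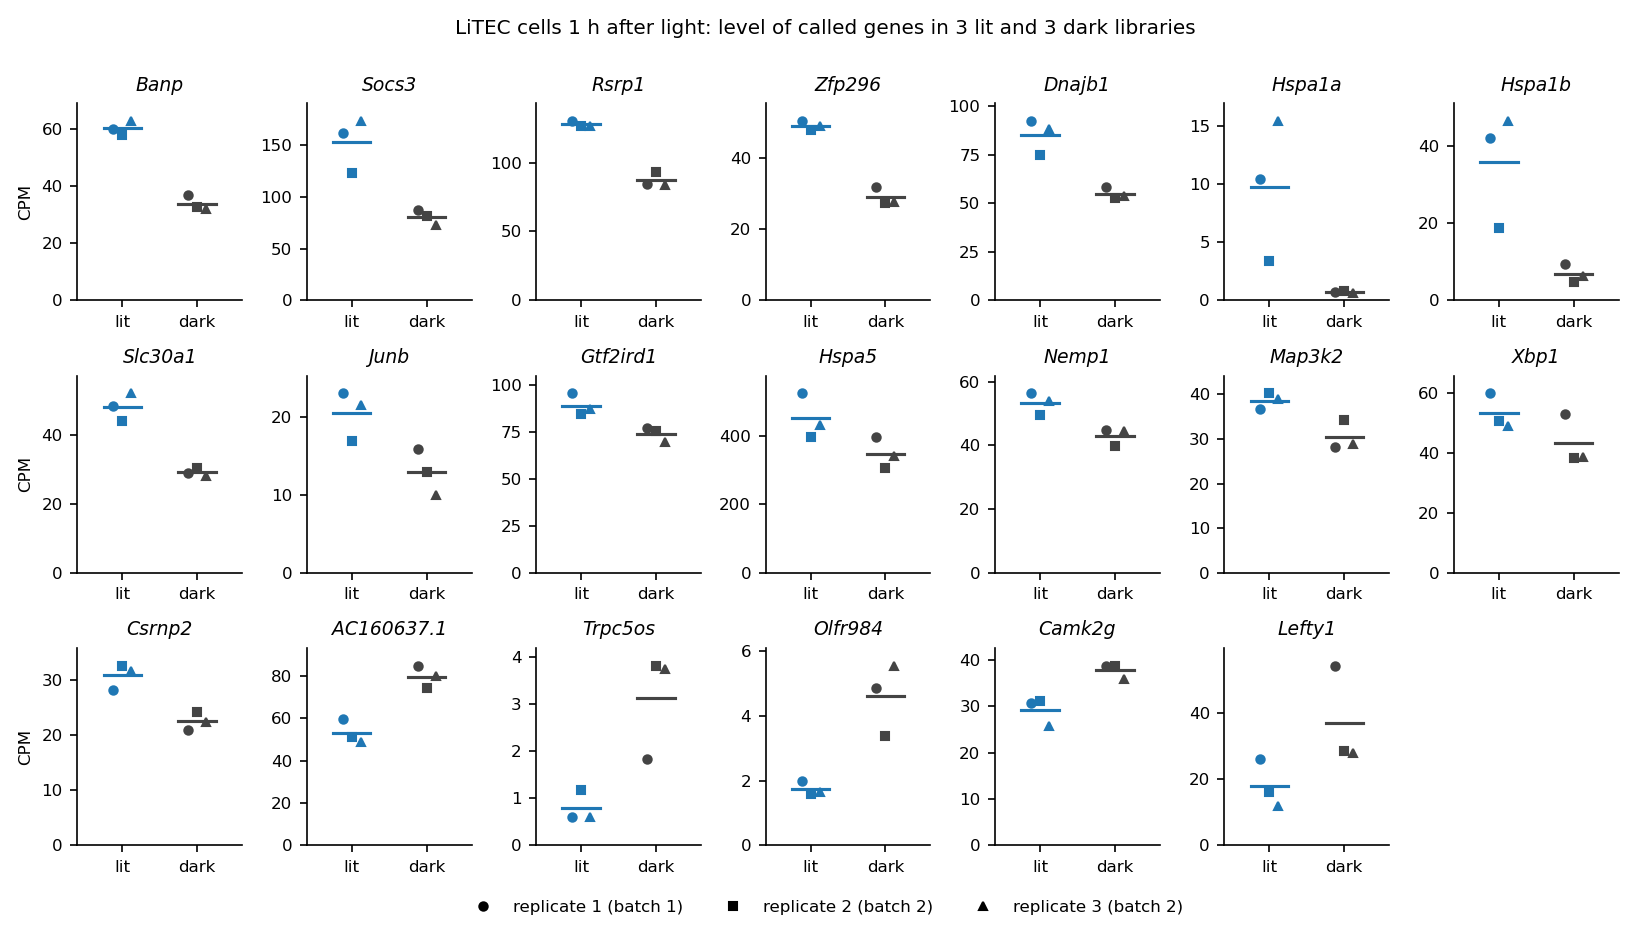
Level of each of 20 of the 21 genes in CPM (vertical axes start at 0) in the 3 lit (left, blue) and 3 dark (right, grey) LiTEC libraries at 1 h, with symbols for replicates and batches and a bar at the group mean. Banp sits at 57.8 to 62.9 CPM lit and 32.1 to 37 CPM dark, while lit Hspa1a spans 3.38 to 15.4 CPM.

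**Figure D2:**
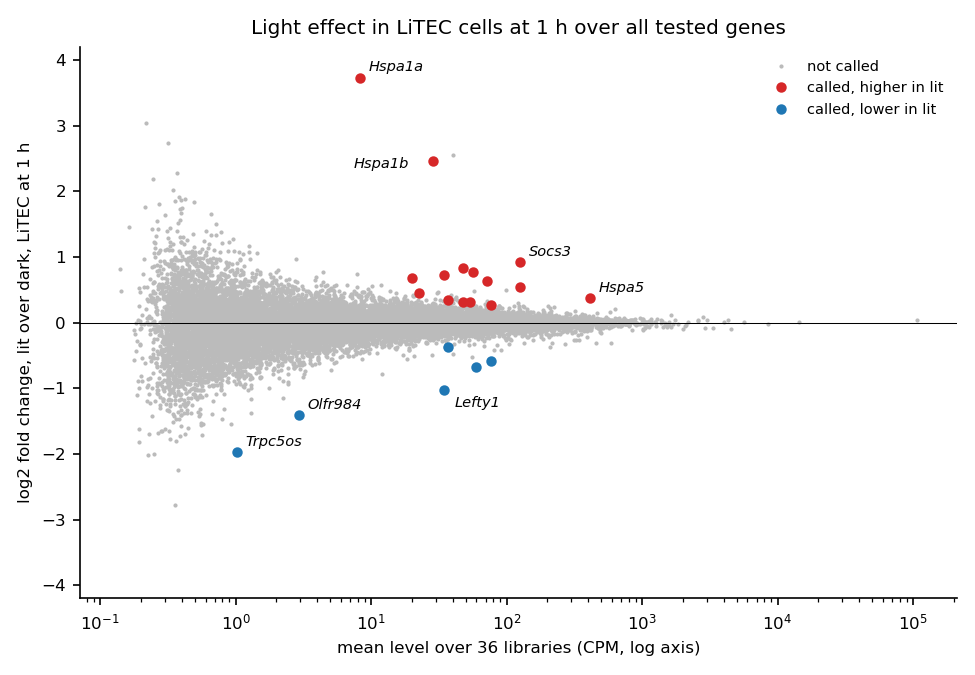
Log2 fold change of lit over dark LiTEC cells at 1 h (vertical axis) against the mean level over 36 libraries in CPM (horizontal, log axis) for 18193 genes, with the 15 higher genes in red and the 6 lower ones in blue. Hspa1a at 3.73 and Hspa1b at 2.46 stand far above the band of grey points, and the grey point beside Hspa1b, named here after its value was seen, is the ferritin pseudogene Ftl2-ps, which was not called (2.56 ± 2.18, SE).

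Hspa1a (chr17:34969190-34972156, minus strand, GRCm38), an inducible Hsp70 chaperone gene, had 10.4, 3.38 and 15.4 CPM in lit replicates 1, 2 and 3, against 0.686, 0.795 and 0.664 CPM in dark ones. All lit libraries were above all dark ones, and the lit values differed among themselves far more than the dark ones. The log2 fold change was 3.73 ± 0.54 (SE; edgeR adjusted p = 0.000199, n = 3 each), a fitted 13.3-fold. Its neighbour Hspa1b (chr17:34956436-34959238, minus strand) had 42.3, 18.8 and 46.6 CPM lit, against 9.37, 4.82 and 6.34 CPM dark, and rose by 2.46 ± 0.41 (adjusted p = 0.00156). Lit replicate 2 was again the lowest of the lit libraries. The Hspa1b call was lost without lit replicate 3 (1.92, adjusted p = 0.0643). These genes are near-identical copies: 47.1% of the 100-base windows of the Hspa1a transcripts and 49.9% of those of Hspa1b occur in both, so the split of reads between them is uncertain, and 19% of the exonic length of Hspa1a is overlapped by Gm20481 on the opposite strand. Dnajb1 (chr8:83608193-83612653), the Hsp40 cochaperone that hands clients to Hsp70, had 92.3, 74.6 and 88.2 CPM lit, against 58.1, 52.6 and 53.7 CPM dark, and rose by 0.63 ± 0.09 (adjusted p = 0.000199).

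The copies also share their promoters. The 250 bases before the RefSeq start of each gene are printed below because they differ at so few positions, with a head-to-head pair of heat shock factor half-sites (GAANNTTC), which starts 104 bases before the gene, in capitals (RefSeq, GRCm38.p6, chr17:34972157-34972406 for Hspa1a and chr17:34959239-34959488 for Hspa1b, minus strand, 5′ to 3′).
Hspa1a: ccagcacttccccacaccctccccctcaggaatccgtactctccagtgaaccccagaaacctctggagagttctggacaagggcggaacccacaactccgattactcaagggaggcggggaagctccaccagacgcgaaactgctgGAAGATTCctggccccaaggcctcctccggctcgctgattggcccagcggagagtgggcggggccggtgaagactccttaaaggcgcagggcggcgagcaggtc
Hspa1b: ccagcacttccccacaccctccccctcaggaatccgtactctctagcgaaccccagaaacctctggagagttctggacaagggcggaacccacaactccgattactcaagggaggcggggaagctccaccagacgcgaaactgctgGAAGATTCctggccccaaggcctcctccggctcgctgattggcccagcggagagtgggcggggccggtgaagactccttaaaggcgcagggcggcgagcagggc
Of the 250 bases, 247 were identical. Promoter entries were found for 15 of the 21 genes, with 16 promoters of 300 bases (250 before the start that RefSeq gives, which can differ from the GENCODE one, and 50 after it). The GAANNTTC pair occurred in promoters of 3 of these genes, Hspa1a, Hspa1b and Csrnp2, and in 7.86% of all 32851 promoters. The tail-to-tail form TTCNNGAA occurred in none of the 15 genes and in 8.52% of all promoters, so either form was in 3 of the 15 genes and in 15.1% of all promoters. The promoters of Dnajb1 held neither form. A stricter element of 3 half-sites, GAA, TTC and GAA at a spacing of 2 bases, occurred in none of them and in 0.603% of all promoters. Both pairs were searched for after that element gave no match.

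Beyond these 3 genes, the cytosolic heat shock list of 24 genes had no further call in either direction. Of the 24, 23 had a positive log2 fold change, against 49.5% of all tested genes, and the list median was 0.08, against −0.0015 over all tested genes. Next by p came Hspa4l, an Hsp110-type gene (0.31 ± 0.15, unadjusted p = 0.0536), Hsph1, the inducible Hsp110 (0.22 ± 0.12), the Hsp90 activator gene Ahsa1 (0.09 ± 0.05), the inducible Hsp90 gene Hsp90aa1 (0.08 ± 0.05) and the cochaperone gene Bag3 (0.12 ± 0.08), none of which passed.

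Of 24 genes of the unfolded protein response, 2 rose and none was called lower. A positive log2 fold change was seen for 23 (median 0.14), against 49.5% of all tested genes. Hspa5 (chr2:34771970-34777547, plus strand), the main Hsp70 chaperone of the endoplasmic reticulum, had 525, 399 and 434 CPM lit, against 398, 306 and 341 CPM dark. The lowest lit value was only just above the highest dark one, and replicate 1 was the highest on both sides. The log2 fold change was 0.38 ± 0.08 (edgeR adjusted p = 0.0261, n = 3 each). Xbp1 (chr11:5520659-5525893), the transcription factor activated by IRE1 splicing, had 60, 50.8 and 49.3 CPM lit, against 53, 38.5 and 38.6 CPM dark. The groups overlapped because dark replicate 1 exceeded lit replicates 2 and 3, but each lit library was above the dark library of its own number (0.31 ± 0.07, adjusted p = 0.0365). At an unadjusted p below 0.05, 12 of the 24 were higher and none lower, against 3.17% of all tested genes higher. They included Manf, a secreted stress factor (0.30 ± 0.09), the disulfide isomerase gene Pdia6 (0.19 ± 0.06), the lectin chaperone gene Calr (0.21 ± 0.07), the cochaperone gene Dnajb9 (0.37 ± 0.12), the Hsp90 paralog gene Hsp90b1 (0.17 ± 0.05) and the degradation factor gene Herpud1 (0.57 ± 0.19), none of which passed after adjustment over all genes (lowest adjusted p = 0.313, for Manf). Hspa5 lost its call without 4 of the 6 libraries, with adjusted p up to 0.307 without lit replicate 1, and Xbp1 without 5, up to 0.311 without dark replicate 2.

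The promoter entry of Hspa5 holds an element by which this response is known to act, CCAAT and CCACG at a spacing of 9 bases (chr2:34772025-34772043, plus strand, RefSeq GRCm38.p6, 5′ to 3′).
Hspa5: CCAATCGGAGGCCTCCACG
The element starts 65 bases before the start that RefSeq gives, which is inside the gene and its exons as GENCODE gives them. Hspa5 was the only one of the 15 genes with a promoter entry to hold it, and it occurred in 0.119% of all promoters of that length.

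Of the 22 ATF4 targets, which mark the integrated stress response, none was called. A positive value was seen for 18 (median 0.12), against 49.5% of all tested genes. At an unadjusted p below 0.05, 4 were higher and none lower, against 3.17% and 3.08% of all tested genes. The bZIP factor gene Cebpg was nearest (0.47 ± 0.11, adjusted p = 0.104) and passed with the replicate block (0.46 ± 0.11, adjusted p = 0.0387). Of 22 tested p53 targets, with a median of 0.18, none was called either. Against 3.17% of all tested genes higher and 3.08% lower at an unadjusted p below 0.05, 9 of the 22 were higher and none lower. Among these were the polymerase gene Polk (0.33 ± 0.09), the p53 ubiquitin ligase gene Mdm2 (0.22 ± 0.06), Trp53inp1 (0.26 ± 0.08), Sesn2 (0.25 ± 0.07) and the cell cycle inhibitor gene Cdkn1a (0.23 ± 0.10). The 21 tested NRF2 targets had no call and 1 gene at an unadjusted p below 0.05.

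Socs3 (chr11:117966079-117970047, minus strand) carried the clearest change of the LIF pathway. It had 162, 123 and 174 CPM in lit libraries, against 87.2, 81.6 and 73 CPM in dark ones. The lowest lit value lay well above the highest dark one, and the log2 fold change was 0.93 ± 0.10 (edgeR adjusted p = 3.65e-07, n = 3 each), 1.9-fold. Junb (chr8:84974484-84978718), an AP-1 subunit gene and STAT3 target, had 23.1, 17 and 21.6 CPM lit, against 16, 13 and 9.96 CPM dark. The groups did not overlap, and it rose by 0.67 ± 0.12 (adjusted p = 0.00375). Its call was lost without lit replicate 3 (adjusted p = 0.0971) or dark replicate 3 (adjusted p = 0.114), and Prdx2 overlaps 7.52% of its exonic length on the opposite strand. These were the called genes of 18 in the LIF and STAT3 list, with none called lower. Of the 18, 17 were positive (median 0.15), against 49.5% of all tested genes. At an unadjusted p below 0.05, 7 were higher, against 3.17% of all tested genes. The others among these 7 were Lif itself (0.46 ± 0.15), the receptor genes Il6st (0.16 ± 0.05) and Lifr (0.14 ± 0.06), the feedback inhibitor gene Cish (0.51 ± 0.18) and Klf5 (0.18 ± 0.08), none of which passed after adjustment.

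The Socs3 promoter holds a STAT motif (TTCNNNGAA), the kind of site by which STAT3 is known to activate it, in capitals in the 250 bases before its RefSeq start (chr11:117969367-117969616, minus strand, RefSeq GRCm38.p6, 5′ to 3′).
Socs3: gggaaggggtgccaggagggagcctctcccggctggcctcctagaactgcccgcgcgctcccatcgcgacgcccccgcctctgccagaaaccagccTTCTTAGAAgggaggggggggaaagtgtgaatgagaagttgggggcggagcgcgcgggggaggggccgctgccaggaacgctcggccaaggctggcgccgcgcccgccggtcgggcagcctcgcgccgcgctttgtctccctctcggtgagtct
The match starts 154 bases before the start that RefSeq gives. It lies inside the gene as GENCODE gives it, in no exon. The motif occurred in 1 of the 15 genes with an entry and in 8.3% of all promoters.

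Of 30 tested immediate early genes, Junb was called, higher, and none was called lower. Of the 30, 20 had a positive log2 fold change (median 0.12), against 49.5% of all tested genes. At an unadjusted p below 0.05, 9 were higher, against 3.17% of all tested genes. The 9 included Jun (0.74 ± 0.22), the mRNA decay factor gene Zfp36 (0.51 ± 0.16), Btg2 (0.30 ± 0.10), Klf6 (0.26 ± 0.10), the kinase gene Sgk1 (0.23 ± 0.09) and Fosl2 (0.77 ± 0.30). With the replicate block Klf6 passed (0.26 ± 0.05, adjusted p = 0.0113). Fos (−0.22 ± 0.38) and Egr1 (−0.55 ± 0.36), the usual first markers of growth factor signalling, had negative values far from the threshold. The 15 genes of FGF and ERK feedback, in cells under a MEK inhibitor, had no call. Of the 15, 7 had a positive value (median −0.03), against 49.5% of all tested genes. At an unadjusted p below 0.05, 3 were higher and none lower, against 3.17% and 3.08% of all tested genes.

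Slc30a1 (chr1:191906767-191913247), the exporter that lowers cytosolic zinc, had 48.5, 44.1 and 52.1 CPM lit, against 29.1, 30.6 and 28 CPM dark. The lit libraries were all far above the dark ones (0.72 ± 0.13, edgeR adjusted p = 0.00368, n = 3 each), and the call was lost without lit replicate 3 (adjusted p = 0.0643) or dark replicate 3 (adjusted p = 0.0632). The gene 1700034H15Rik overlaps 8.92% of the exonic length of Slc30a1 on the opposite strand. The other 5 zinc genes did not pass: the zinc sensor gene Mtf1 was at 0.12 ± 0.07 and the metallothionein genes Mt1, Mt2 and Mt3 at 0.14 ± 0.13, 0.11 ± 0.13 and 0.49 ± 0.30.

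Banp (chr8:121949750-122029258, plus strand), which binds unmethylated CGCG elements in CpG island promoters, had the smallest p of all genes. It stood at 60.2, 57.8 and 62.9 CPM lit, against 37, 32.7 and 32.1 CPM dark. Replicates were close on both sides, and the log2 fold change was 0.83 ± 0.07 (edgeR adjusted p = 1.41e-08, n = 3 each), 1.78-fold. The CTCGCGAG element that Banp recognises was in none of the 16 promoters and in 0.919% of all. Rsrp1 (chr4:134923592-134927671), an arginine- and serine-rich nuclear protein gene, had 130, 126 and 127 CPM lit, against 84.5, 93.2 and 83.8 CPM dark (0.55 ± 0.06, adjusted p = 3.65e-07). It was the called gene of 25 splicing kinases and regulators, of which Clk4 (0.23 ± 0.07) and Clk1 (0.18 ± 0.06), kinases of SR proteins, did not pass. The SR protein gene Srsf5 was just outside the threshold (−0.26 ± 0.06, adjusted p = 0.0531) and inside it with the replicate block (adjusted p = 0.0119). Zfp296 (chr7:19577287-19580656), a zinc finger factor gene of pluripotent cells, had 50.5, 48 and 49.1 CPM lit, against 31.9, 27.3 and 27.7 CPM dark (0.77 ± 0.10, adjusted p = 1.12e-05). Gemin7 overlaps 12.9% of its exonic length on the opposite strand. For Banp, Rsrp1 and Zfp296 alike, the groups were separated by far more than the spread within them.

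The remaining rises were smaller. Gtf2ird1 (chr5:134357656-134456716), a TFII-I family factor gene, had 95.8, 84.8 and 87.2 CPM lit, against 77.2, 75.5 and 69.8 CPM dark (0.26 ± 0.05, adjusted p = 0.022). Nemp1 (chr10:127666901-127701049), an inner nuclear membrane protein gene, had 56.3, 49.6 and 53.8 CPM lit, against 44.9, 39.7 and 44.6 CPM dark (0.31 ± 0.07, adjusted p = 0.0365). Map3k2, a kinase gene upstream of ERK5, had 36.6, 40.2 and 38.9 CPM lit, against 28.1, 34.3 and 28.7 CPM dark (0.34 ± 0.07, adjusted p = 0.0365). These lit and dark groups lay close together without touching. Csrnp2 (chr15:100479570-100495488), a nuclear factor gene of the CSRNP family, had 28.2, 32.5 and 31.6 CPM lit, against 20.9, 24.1 and 22.3 CPM dark (0.46 ± 0.10, adjusted p = 0.0433). The 4 calls depended on single libraries: Csrnp2 lost its call without any one of the 6 (adjusted p up to 0.324, without dark replicate 3), Gtf2ird1 and Map3k2 without 5 (up to 0.221 and 0.358, both without dark replicate 3) and Nemp1 without 4 (up to 0.41, without dark replicate 2).

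Near the threshold, the members just inside were Map3k2, Xbp1 and Csrnp2. Those just outside were the heparan sulfate sulfotransferase gene Hs3st3b1 (0.77 ± 0.17, adjusted p = 0.0516), the olfactory receptor gene Olfr983 (−1.15 ± 0.25, adjusted p = 0.0516) and Srsf5. Like Srsf5, Hs3st3b1 and Olfr983 passed with the replicate block (edgeR adjusted p = 0.0214 and 0.0145).

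Among the lower genes Lefty1 (chr1:180935022-180938400), the secreted inhibitor and target of Nodal, had 26.1, 16.1 and 11.9 CPM lit, against 54.2, 28.4 and 28 CPM dark. The highest lit value, in replicate 1, lay just below the dark values of replicates 2 and 3, and each lit library was well below the dark one of its number. It fell by 1.03 on the log2 scale (SE 0.21, edgeR adjusted p = 0.0243, n = 3 each), and the call was lost without 5 of the 6 libraries (adjusted p up to 0.283, without lit replicate 3). It was the called gene of 29 in the Nodal, BMP and SMAD list, of which 15 had a positive value, against 49.5% of all tested genes. The related gene Lefty2 (−0.42 ± 0.24) and Nodal itself (0.10 ± 0.08) did not pass. The inhibitory Smad7 (−0.32 ± 0.08, adjusted p = 0.125) passed with the replicate block (adjusted p = 0.0184).

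Camk2g (chr14:20734875-20794088), a calcium- and calmodulin-dependent kinase subunit gene, had 30.7, 31.1 and 25.8 CPM lit, against 38.8, 38.8 and 35.9 CPM dark (−0.38 ± 0.07, edgeR adjusted p = 0.0112, n = 3 each). All lit values lay below all dark ones. Its call was lost without 4 of the 6 libraries, with adjusted p up to 0.274 without lit replicate 3. AC160637.1 (chr9:59672814-59676700) is an unspliced gene model of unresolved type within the glycolytic gene Pkm on the same strand, sharing 19.7% of its exonic length, so its counts may hold Pkm reads. It had 59.8, 51.1 and 48.9 CPM lit, against 84.8, 74.3 and 80 CPM dark (−0.59 ± 0.09, adjusted p = 0.000199), with lit and dark well apart.

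A further pair of lower genes had low counts. Trpc5os (chrX:144456581-144477066), which lies opposite the channel gene Trpc5, had 0.596, 1.16 and 0.602 CPM lit, against 1.83, 3.81 and 3.74 CPM dark (−1.97 ± 0.29, edgeR adjusted p = 0.000199, n = 3 each). Olfr984 (chr9:40096515-40114206), an olfactory receptor gene, had 1.99, 1.57 and 1.64 CPM lit, against 4.87, 3.39 and 5.56 CPM dark (−1.40 ± 0.26, adjusted p = 0.00616). For both the lit values were all below the dark ones. The Olfr984 call was lost without lit replicate 1 (adjusted p = 0.051), lit replicate 3 (adjusted p = 0.0643) or dark replicate 3 (adjusted p = 0.144).

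**Figure D3:**
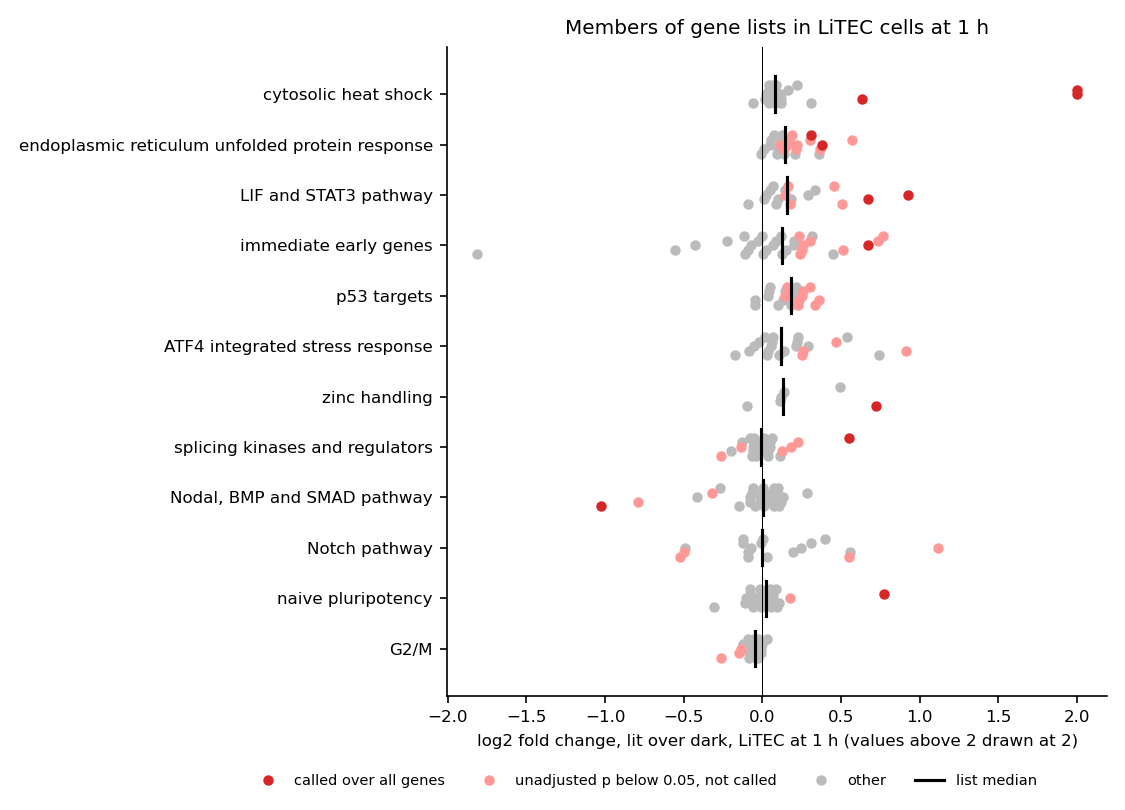
Log2 fold change of lit over dark LiTEC cells at 1 h for the tested members of 12 gene lists, 1 point per gene, with called genes in red, genes at an unadjusted p below 0.05 in pink and a bar at the list median (Hspa1a and Hspa1b, above 2, are drawn at 2). The medians of the unfolded protein response, LIF and p53 lists lie at 0.14, 0.15 and 0.18, and those of the Nodal, Notch and splicing lists near 0.

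The other lists moved little. Of 24 naive pluripotency genes Zfp296 was the called one, and Pou5f1 (0.02 ± 0.10), Nanog (−0.11 ± 0.10), Sox2 (0.05 ± 0.07), Klf4 (0.09 ± 0.09) and Esrrb (−0.01 ± 0.06) were not called. Of 18 tested Notch genes none was called. The receptor gene Notch3 was lowest by p (−0.52 ± 0.12, adjusted p = 0.0936) and passed with the replicate block (−0.53 ± 0.08, adjusted p = 0.000264). Of 30 Mediator genes none was called, and Med1 passed with the block (−0.27 ± 0.06, adjusted p = 0.0129; 0.0548 without it). Of 20 G2/M genes 1 had a positive value, against 49.5% of all tested genes, and the median was −0.04. Cdc25c (−0.26 ± 0.09), Cdk1 (−0.15 ± 0.06) and Ccnb1 (−0.14 ± 0.06) did not pass. The 13 tested non-coding hosts of small nucleolar RNAs had a median of −0.10 and no call, against 6 called lower in LiTEC cells at 0 h, when 170 genes were called in all (0.934%). No gene was called among 14 formative and primed pluripotency genes, 18 clock genes, 20 cholesterol synthesis genes, 22 glycolysis and hypoxia genes, 22 G1/S genes, 28 genes of RNA polymerase II, pausing and elongation and 13 mitochondrially encoded mRNAs.

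WT cells, which lack LiTEC and share no library with the LiTEC cells, had the same direction for each of the 21 genes. How many of all tested genes had the same direction in both genotypes was not counted. Of these 21, 17 were also called in WT, 13 higher and 4 lower, against 32 of all tested genes called higher in WT (0.176%) and 20 lower (0.11%). Hspa1a had 31.4, 10.3 and 40.3 CPM in lit WT libraries, against 0.549, 0.716 and 0.455 CPM in dark ones, and Hspa1b had 85.4, 39 and 94.9 CPM in lit WT libraries, against 10.1, 5.95 and 5.11 CPM in dark ones. In both genotypes replicate 2 was the lowest lit library for these genes. Banp had 50, 52.6 and 48.2 CPM lit and 31, 29.4 and 27.3 CPM dark in WT. The 4 not called in WT were Hspa5 (0.21 ± 0.08, adjusted p = 0.433), Map3k2 (0.25 ± 0.07, adjusted p = 0.192), Trpc5os (−0.77 ± 0.32, adjusted p = 0.519) and Olfr984 (−0.61 ± 0.24, adjusted p = 0.478).

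The difference between the light effects of LiTEC and WT cells was tested itself. No gene passed (0 of 18193, 0%; smallest edgeR adjusted p = 1; 378 genes at an unadjusted p below 0.05; 0 by DESeq2). For Banp the LiTEC minus WT difference was 0.05 ± 0.11 (95% interval −0.17 to 0.26), for Socs3 −0.04 ± 0.14 (−0.32 to 0.24) and for Lefty1 0.10 ± 0.29 (−0.49 to 0.69). Hspa1a differed by −1.82 ± 0.95 (−3.74 to 0.11, unadjusted p = 0.0634) and Hspa1b by −1.01 ± 0.58 (−2.19 to 0.17, unadjusted p = 0.0909). In this fit, which has no replicate block, intervals for the Hsp70 genes reach 0 and also hold a much smaller response in LiTEC cells. With the block, the light effect on Hspa1a was 3.628 in LiTEC and 5.485 in WT cells, and on Hspa1b 2.404 and 3.414. The blocked difference had 0 calls, and its intervals are not given here. Trpc5os (−1.20 ± 0.44, unadjusted p = 0.00952) and Olfr984 (−0.79 ± 0.35, unadjusted p = 0.0321) had the lowest unadjusted p among the 21. Neither passed after adjustment. Hspa5 differed by 0.17 ± 0.11 (−0.05 to 0.39), so its call in LiTEC and not in WT is not a shown difference.

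**Figure D4:**
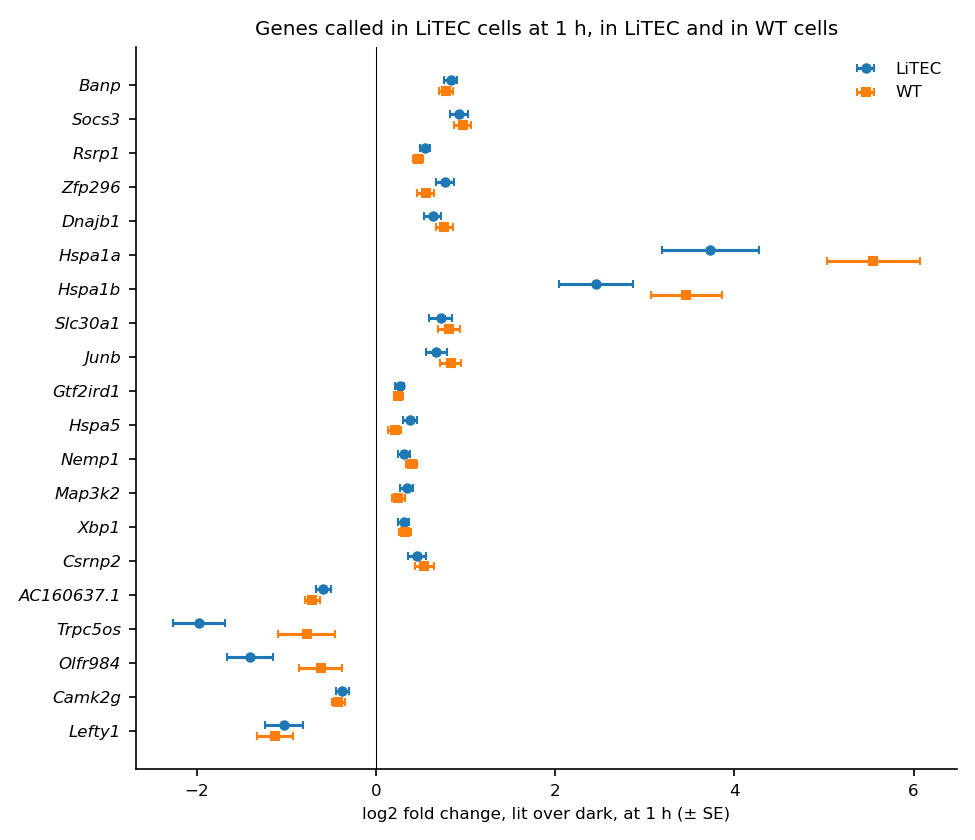
Log2 fold change of lit over dark at 1 h with its SE (horizontal axis) for 20 of the 21 genes in LiTEC cells (blue circles) and WT cells (orange squares). Bars overlap or nearly do for most genes, while Hspa1a lies at 3.73 in LiTEC and 5.55 in WT, and Trpc5os at −1.97 in LiTEC and −0.77 in WT.

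Across the time course the genes differed in when their light effect was called. The LiTEC effect at 0 h was called, in the same direction, for 10 of the 21, against 170 of all tested genes (0.934%). Among the 10 were Banp, Zfp296, Dnajb1, Hspa1a, Hspa1b, Slc30a1, Csrnp2, AC160637.1 and Olfr984. Dnajb1 had a light effect of 0.63 ± 0.09 at 1 h and 0.63 ± 0.09 at 0 h, and Hspa1a of 3.73 ± 0.54 at 1 h and 2.89 ± 0.60 at 0 h. Rsrp1 was at −0.00 ± 0.06 at 0 h and Socs3 at 0.09 ± 0.10. At 4 h none of the 21 was called, when 2 of all genes were (0.011%), and 15 kept their sign. The share of all tested genes that kept their sign was not counted. The largest of these 4 h values in comparison with its error was that of AC160637.1, at −0.36 ± 0.09. Since the genes were chosen at 1 h, a larger value at 1 h than at the other times is favoured by the choice.

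Tests of the change between times called few genes. Between 0 and 1 h the light effect grew for 2 genes (0.011%), Rsrp1 by 0.55 ± 0.08 (edgeR adjusted p = 0.002, n = 3 per group) and Socs3 by 0.83 ± 0.14 (adjusted p = 0.00816), and 8 passed with the replicate block. Socs3 lost this call without lit replicate 1 or 3 at 1 h, dark replicate 3 at 1 h or dark replicate 2 at 0 h (adjusted p up to 0.0832). Between 1 and 4 h it changed for 4 genes (0.022%), and 13 passed with the block. The 4 h minus 1 h difference was −0.87 ± 0.10 for Banp (adjusted p = 1.87e-05), −0.54 ± 0.08 for Rsrp1 (adjusted p = 0.00152) and −0.82 ± 0.13 for Zfp296 (adjusted p = 0.00283). For Trpc5os it was 2.35 ± 0.42 (adjusted p = 0.0138), a call lost without any of 6 of the 12 libraries (adjusted p up to 0.162, without lit replicate 3 at 1 h). Both differences were tested over all tested genes, and both use the 1 h libraries that chose the 21 genes.

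The levels behind these effects moved in dark cells as well. Dark Banp averaged 42.5 CPM at 0 h, 33.9 CPM at 1 h and 58.9 CPM at 4 h, while lit Banp averaged 52.8, 60.3 and 57.4 CPM. Dark Rsrp1 averaged 123, 87.2 and 170 CPM at these times and lit Rsrp1 123, 128 and 171 CPM. Dark Zfp296 averaged 47.7, 29.0 and 68.2 CPM and lit Zfp296 69.5, 49.2 and 65.6 CPM. For each of these the dark libraries at 1 h were thus the lowest of the dark libraries. For 6 of the 15 higher genes, Banp, Socs3, Rsrp1, Zfp296, Junb and Nemp1, all 3 dark LiTEC libraries at 1 h lay below all 6 dark LiTEC libraries of 0 and 4 h, against 455 of all tested genes (2.5%). In dark WT cells the like held for 7 of the 15, among them Banp, Socs3, Rsrp1, Zfp296 and Nemp1, against 329 of all tested genes (1.81%). Of the 6 lower genes Trpc5os had all its dark values at 1 h above those of 0 and 4 h, in LiTEC and in WT, against 451 genes in LiTEC (2.48%) and 304 in WT (1.67%). The dark libraries at 1 h are also the base of the light effect at 1 h, so these counts share libraries with the calls and are a description.

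Set beside the dark libraries of 0 and 4 h, the lit libraries at 1 h gave a mixed picture. For Socs3, Hspa1a, Slc30a1 and Csrnp2 all 3 lit libraries lay above all 6 of those dark ones, against 378 of all genes (2.08%). Hspa1a, at 3.38 to 15.4 CPM lit, had 0.31 to 1.19 CPM there. For Rsrp1, Zfp296, Junb and Map3k2 all 3 lit values lay within the range of those dark libraries, which was 117 to 181 CPM for Rsrp1 and 45.5 to 78.9 CPM for Zfp296. The share of all tested genes with this last arrangement was not counted, so it is not shown to set these genes apart. For 4 of the 6 lower genes, among them AC160637.1, Olfr984 and Camk2g, all lit values lay below those of the 6 dark libraries, against 404 of all genes (2.22%). Hspa1b had 32.7 CPM in dark replicate 1 at 4 h, within its lit range of 18.8 to 46.6 CPM. What sets the dark levels at 1 h apart was not tested.

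**Figure D5:**
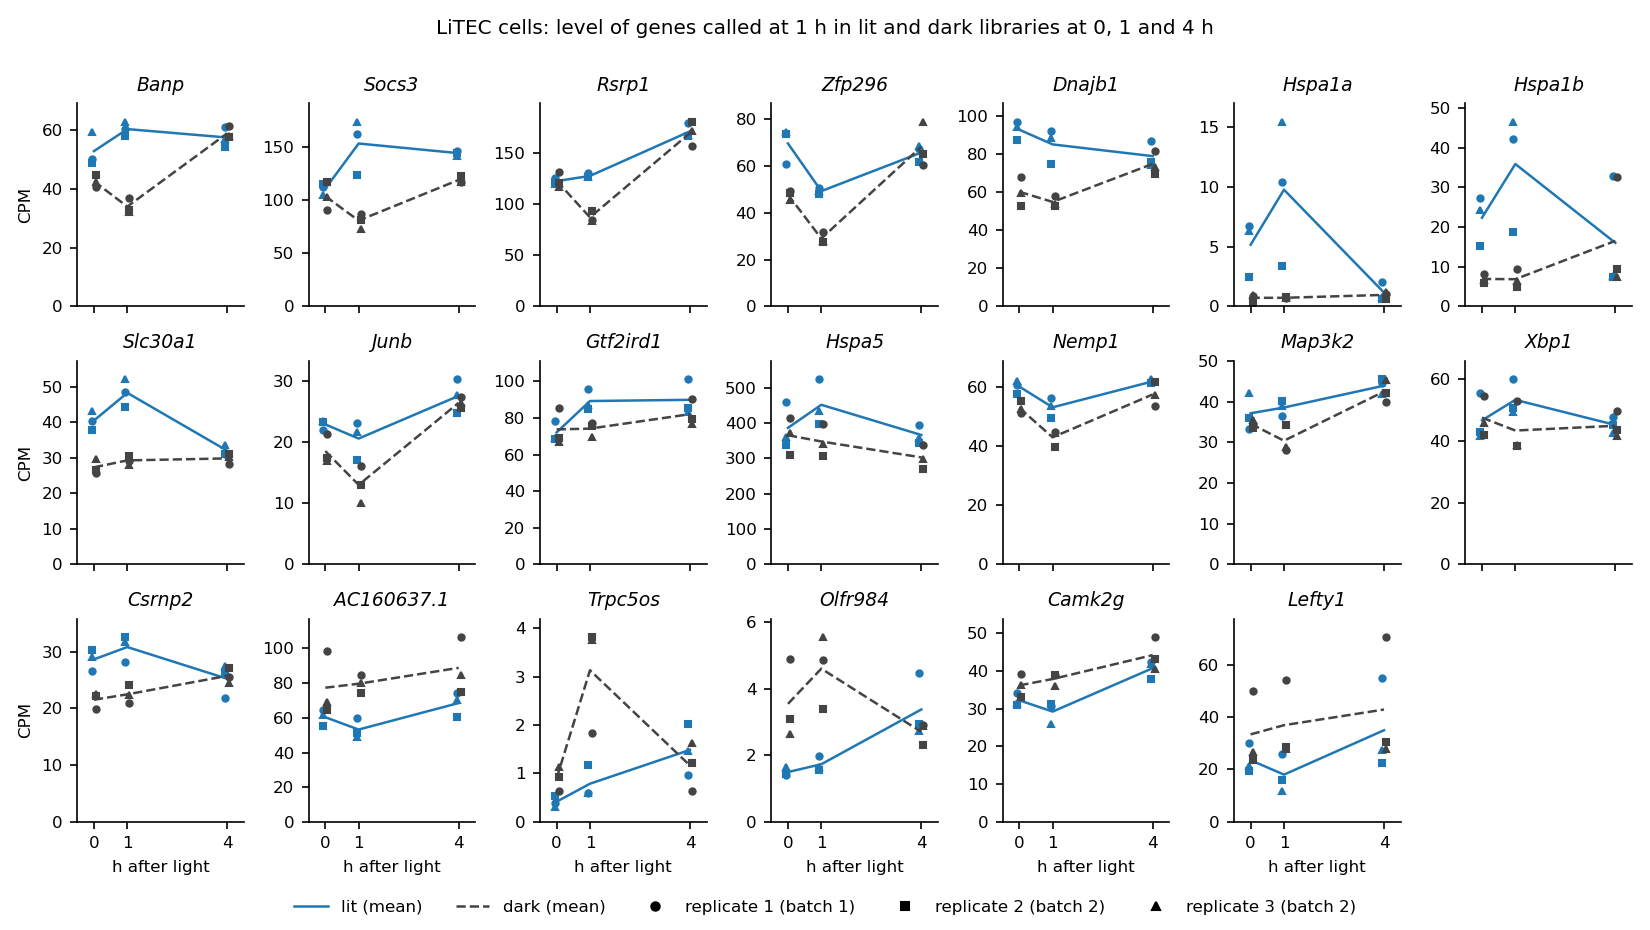
Level in CPM (vertical axes start at 0) of 20 of the 21 genes in lit (blue, solid) and dark (grey, dashed) LiTEC libraries at 0, 1 and 4 h after light, with lines through the group means and symbols for replicates and batches. Dark Banp, Rsrp1 and Zfp296 dip at 1 h, to 33.9, 87.2 and 29.0 CPM, whereas dark Hspa1a stays at or below 1.19 CPM and its lit level peaks at 1 h.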

How the data were processed

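The authors deposited raw counts per gene for 36 libraries of mouse embryonic stem cells, and no column held anything else. TRIzol extraction and a stranded mRNA kit are given in the labels' protocols. The submitters' processing notes name FastQC, featureCounts and the build mm10 (GRCm38). The aligner, the strand setting and the handling of multiply matching reads are not stated in the sources used here, so counts of overlapping or near-identical genes are uncertain. Of 54842 genes, 18193 passed edgeR's filterByExpr (minimum count 10). All 36 libraries (11132970 to 21842256 counts) were scaled by TMM and fitted with 12 group means and a batch term, with 23 residual degrees of freedom using R 4.3.3 with edgeR 4.0.16 and limma 3.58.1. Benjamini-Hochberg adjustment covered all tested genes. SE is the size of the log2 fold change divided by the square root of F. Fold changes between low counts depend on edgeR's prior count. CPM use TMM-scaled library sizes. The procedure was tested on simulated counts that had no batch effect and no deviations shared by replicate number, so that test does not cover these features of the data. Named are all called genes, the called and up to 6 further members by p of each list described, 3 genes on each side of the threshold, genes called in the differences and a few fixed genes. Of the called genes, 1 is counted but not reported here. The members, the lists and the comparison of dark times were chosen with earlier results of these data known. Lit and dark libraries of the same replicate number at 1 h deviated together. Correlations of deviations from the group means were 0.774, 0.673 and 0.599 in LiTEC for replicates 1, 2 and 3. In WT they were 0.742, 0.701 and 0.634. Since replicate 1 alone was in batch 1, these values also carry the batch. Within batch 2, the difference between replicates 2 and 3 correlated at 0.53 between lit and dark LiTEC libraries. The numbers were therefore taken to pair samples. The blocked fit is given where it changes whether a named gene passed for the light effect in LiTEC cells at 1 h. No replicates of these cells agreed within sampling noise. Alternatives were the replicate block, no batch term, batch 2 alone, the compared groups alone, RLE scaling, DESeq2 1.42.0, no filter, a mean of at least 5 CPM, leaving out each library and, added after seeing the data, leaving out ribosomal RNA loci. Coordinates are 1-based GRCm38 positions from GENCODE M21, which matched 17390 of the tested genes.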

Additional observations from a re-analysis of the deposited data

Results flagged for a closer look

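The light effect of LiTEC cells at 1 h differed from that at another time, by a test of the difference itself (edgeR, n = 3 per group), for 5 genes. The 1 h minus 0 h difference was 0.55 ± 0.08 (SE; adjusted p = 0.002) for Rsrp1 and 0.83 ± 0.14 (adjusted p = 0.00816) for Socs3. The 4 h minus 1 h difference was −0.87 ± 0.10 for Banp (adjusted p = 1.87e-05), −0.54 ± 0.08 for Rsrp1 (adjusted p = 0.00152), −0.82 ± 0.13 for Zfp296 (adjusted p = 0.00283) and 2.35 ± 0.42 for Trpc5os (adjusted p = 0.0138). For all 5 genes the dark libraries at 1 h lay outside the range of the dark LiTEC libraries of 0 and 4 h, and the part of those dark levels in the differences was not tested. These tests covered all tested genes, but the same libraries at 1 h also chose the 21 genes, which include these 5.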

How the results depend on the processing

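The count of 21 genes for the light effect at 1 h was 60 with the replicate block, 50 without an expression filter, 45 by DESeq2, 10 without a batch term and 7 in batch 2 alone, and 9 to 35 when 1 library was left out. The count stayed within 1.5 times of 21 with RLE scaling (21), without ribosomal RNA loci (22), at a mean of at least 5 CPM (24) and with the compared groups alone (27). A like count did not mean the same genes. With the compared groups alone 12 genes were higher and 15 lower, and only 15 of the 27 were among the 21. Xbp1, Camk2g, Gtf2ird1, Map3k2, Nemp1 and Junb lost their calls there. None of the 21 genes changed sign in any setting tried. Banp, Rsrp1, Zfp296, Socs3 and Trpc5os passed in every other setting in which they were tested, and 9 genes, these with Dnajb1, Hspa1a and AC160637.1 among them, passed whichever of the 6 libraries was left out. The LiTEC minus WT difference had 0 calls, and 4 without a filter, where more low genes were tested. The 2 calls for 1 h minus 0 h became 8 with the block, 9 by DESeq2, 19 without a filter, 0 in batch 2 alone, and 1 to 4 with 1 library left out. The 4 calls for 4 h minus 1 h became 13 with the block, 7 by DESeq2, 7 with the compared groups alone and 23 without a filter. The block ended none of the calls among the 21 genes. Batch 2 alone has 2 libraries a group and fewer residual degrees of freedom. The causes of the other shifts were not tested.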
